A study of Sus scrofa with 6 samples.

Results

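Of the 2384 genes that could be named on the array, 8 genes of fat tissue and lipid metabolism were followed across pig femoral arteries: FABP4, LPL, CD36, PPARG, SCD, FASN, LIPE and GPD1. They were chosen by name, as every non-control probe whose array annotation is a pig RefSeq transcript of one of them, which gave 38 probes. The artery samples (Sus scrofa) were taken at the place of puncture and analysed ex vivo. Of these, 3 came from closure with TAG, the study's vascular glue. The other 3 came from closure with Exoseal, a marketed closure device that sets an absorbable plug outside the vessel wall. All 6 samples carry the same left puncture site in the labels, and no strain, sex, age, time after closure or number of animals is given there, nor whether each sample stands for an animal of its own. The p-values therefore measure only how these samples spread, and that spread may be technical. No unpunctured artery is among the 6 samples. Samples were grouped by title. Exoseal replicate 1 has TAG in its treatment field, so results of the 8 genes that turn on it are also given without it. Single genes outside the 8 are given with it only.

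A femoral artery lies in a sheath of fat and loose connective tissue, and a sample of its wall can carry some of that fat. In adipocytes, fatty acids are released from circulating lipoproteins by lipoprotein lipase, taken up through CD36 and carried inside the cell by FABP4, or made from acetyl-CoA by fatty acid synthase and desaturated by SCD. They are then joined to a glycerol backbone supplied through GPD1, stored as triglyceride and released again by hormone-sensitive lipase, encoded by LIPE. PPARG is the transcription factor that turns on most of this programme. None of these genes belongs to adipocytes alone: macrophages also make FABP4, CD36 and LPL, the endothelium of small vessels makes FABP4 and CD36, and muscle makes LPL and CD36.

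Levels are log2 of the scanner's processed signal minus the 75th percentile of the array, so that 0 is the 75th percentile, and they compare arrays for 1 probe, not 1 probe with another. Where a gene had several probes, the one with the highest mean signal (the brightest) stood for it, and a probe was tested where the scanner flagged it as well above background on 3 or more of the 6 arrays. Of the 38 probes, 31 passed that filter and 19 were well above background on all 6 arrays. Another 5 were above background on 1 or 2 arrays, and 2, both of LPL, on none. Every one of the 8 genes kept at least 2 probes. The TAG arrays detected fewer probes of any kind, 34.7% to 41.2% against 60.6% to 70.8% on the Exoseal arrays. The 3 TAG arrays and Exoseal replicate 1 shared one scan (slide 1), and Exoseal replicates 2 and 3 another (slide 2). A comparison within slide 1 therefore sets the 3 TAG arrays against a single Exoseal array. The fit with slide as a block gives the same differences as within slide 1, since slide 2 holds no TAG array. In it Exoseal replicates 2 and 3 add only to the estimate of spread, so it is not a separate check of a difference. The lowest level at which any probe counted as well above background was -1.74 to -1.07 on TAG arrays, -2.42 on Exoseal replicate 1, and -5.08 and -3.67 on Exoseal replicates 2 and 3. A dim probe thus has a higher floor on the TAG arrays. Without Exoseal replicate 1 the groups lie on separate slides and slide and closure cannot be told apart. In that fit, with every probe as a feature, 21.1% of all probes were called higher and 12.8% lower in TAG, so its calls below stand against a high background.

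The 8 genes did not move together. GPD1, which makes the glycerol 3-phosphate of triglycerides, rose in TAG by 4.46-fold by its brightest probe (limma, adjusted p = 0.0308), and it was the only one of the 8 to pass the test by that probe. FASN, the fatty acid synthase, had a log2 difference of 1.02 and CD36, the fatty acid translocase, one of -1.03, and neither passed. LPL (-0.79), LIPE (-0.45), PPARG (0.31), FABP4 (-0.16) and SCD (0.02) did not pass either. The 1 call among 8 genes is 12.5%, against 10.3% of all 20857 features tested, so the share is near the background. Of the 8 genes 4 had a difference above 0 and 4 below, with a median of -0.07 against 0.03 over all features. GPD1 and FASN were the 2 genes whose groups did not overlap by the brightest probe, where 35.7% of all features had groups that did not overlap.

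**Figure D1:**
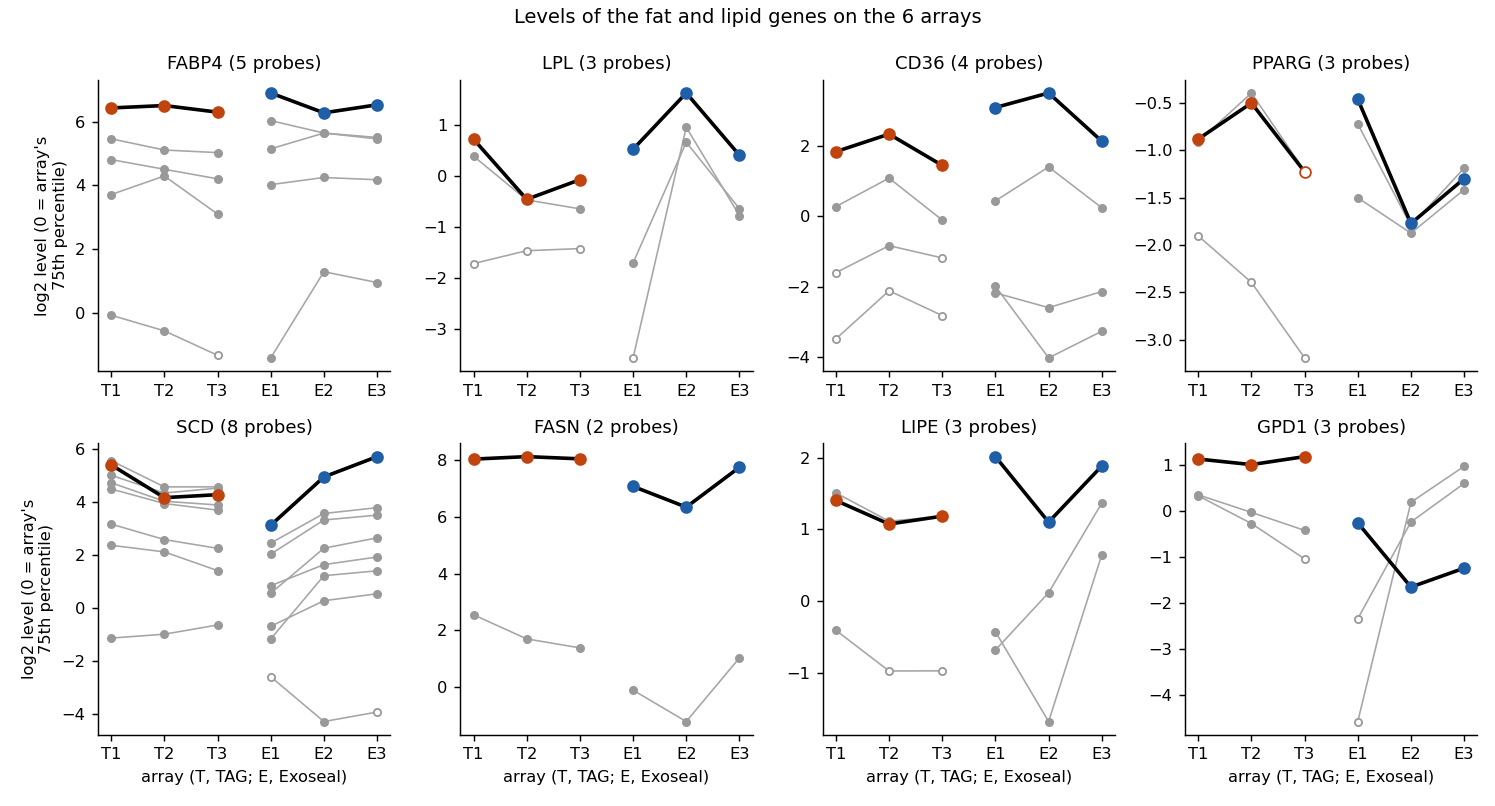
Log2 level of every tested probe of the 8 genes on the 6 arrays (vertical axis, 0 is the 75th percentile of the array; horizontal axis, TAG replicates T1 to T3 and Exoseal replicates E1 to E3). The thick line with coloured points is the brightest probe, grey lines are the other probes, lines join the points of 1 probe within a group, and hollow points are not well above background. GPD1 by its brightest probe lies between 1.00 and 1.17 on TAG arrays and between -1.66 and -0.27 on Exoseal arrays. Of the 8 SCD probes 7 are lower on all Exoseal arrays than on any TAG array, where 36.4% of all probes have groups that do not overlap.

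FABP4, the cytosolic fatty acid carrier that is among the most abundant transcripts of fat cells, was well above background on all 6 arrays by 4 of its 7 probes. Its brightest probe (A_72_P576219) had levels of 6.43, 6.51 and 6.30 on TAG replicates 1 to 3 and of 6.90, 6.28 and 6.53 on Exoseal replicates 1 to 3. The groups overlapped, with Exoseal replicate 1 the highest and Exoseal replicate 2 the lowest of the 6, and the difference was -0.16 ± 0.42 (SE; limma, adjusted p = 0.834). All 5 tested probes of FABP4 had a difference below 0, from -0.93 to -0.16, and 0 of them passed. A further probe, A_72_P616844, separated the groups with 4.81, 4.51 and 4.21 in TAG and 5.15, 5.64 and 5.51 in Exoseal, a difference of -0.93 ± 0.42 (adjusted p = 0.168 with every probe as a feature). Without Exoseal replicate 1 the brightest probe had 0.01, and the dimmest tested probe, A_72_P564767, had -1.78 and passed (adjusted p = 0.0114). Within slide 1 that probe had 0.76.

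LPL, the lipase bound to capillary walls, varied more between arrays of 1 group. Its brightest probe (A_72_P760377) had 0.73, -0.45 and -0.07 in TAG and 0.53, 1.63 and 0.41 in Exoseal. Exoseal replicate 2 stood highest and TAG replicate 2 lowest, the groups overlapped, and the difference was -0.79 ± 0.52 (adjusted p = 0.345). All 3 tested probes of LPL were highest on Exoseal replicate 2 among the Exoseal arrays, with unscaled signals there of 467, 293 and 239 against 35.8 to 81.1 on Exoseal replicate 3. They ranked Exoseal replicate 1 differently: for A_72_P742824 it was the lowest array, at -3.56 and not well above background, and for the brightest probe it was the third highest. The log2 difference of A_72_P742824 was 0.89 ± 0.97 (adjusted p = 0.577 with every probe as a feature). It was 3.32 within slide 1, where it rests on Exoseal replicate 1 alone, and -0.33 without that array. The remaining probe, A_72_P232767, was detected above background on no TAG array. It passed the filter through the 3 Exoseal arrays alone, which favours a lower value in TAG. Its Exoseal levels were -1.70, 0.67 and -0.64, the first close to the lowest level detectable on TAG arrays, so no fold is given. The difference was -0.97 ± 0.60 and did not pass (adjusted p = 0.303 with every probe as a feature). This probe had 0.17 within slide 1, and -1.54 without Exoseal replicate 1, where it passed (0.0243).

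CD36, which lets fatty acids into fat, muscle and endothelial cells and serves macrophages as a scavenger receptor, had 1.84, 2.34 and 1.45 in TAG and 3.09, 3.50 and 2.14 in Exoseal by its brightest probe (A_72_P569934). Exoseal replicates 1 and 2 were above every TAG array, and Exoseal replicate 3 lay just under TAG replicate 2. The difference was -1.03 ± 0.51 (adjusted p = 0.202), or 2.05-fold lower in TAG, and -1.22 within slide 1. The other probe above background on all 6 arrays had -0.28 ± 0.51. A dimmer probe, A_72_P547299, went the other way with 1.88 ± 0.57 (adjusted p = 0.0632). It passed without Exoseal replicate 1 (2.43, adjusted p = 0.00122) and had 0.78 with slide as a block (0.422). It was well above background on 1 of 3 TAG arrays, with unscaled signals of 8.53 to 14.5 in TAG and 6.39 to 17.4 in Exoseal. The remaining probe had -0.50 ± 0.48. It was detected on no TAG array and passed the filter through the Exoseal arrays alone.

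PPARG, the master regulator of fat cell differentiation, was dim. Its brightest probe (A_72_P441339) had levels of -0.88, -0.50 and -1.23 in TAG and -0.46, -1.77 and -1.30 in Exoseal, and TAG replicate 3 was not well above background. The groups overlapped and the difference was 0.31 ± 0.49 (adjusted p = 0.716), and its sign turned under quantile (-0.02) and median scaling (-0.15) and within slide 1 (-0.41). Without Exoseal replicate 1 it was 0.67. A companion probe, A_72_P636927, had nearly the same pattern, with 0.40 ± 0.47. The remaining probe, A_72_P146711, was above background on all 3 Exoseal arrays and on no TAG array, but its Exoseal levels of -1.50, -1.87 and -1.41 were close to the lowest level detectable on TAG arrays, so no fold is given.

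FASN, the enzyme that builds palmitate, had the narrowest TAG values of the 8 genes. Its brightest probe (A_72_P175196) had 8.04, 8.13 and 8.05 in TAG and 7.08, 6.35 and 7.75 in Exoseal, all 3 TAG arrays above all 3 Exoseal arrays. The difference was 1.02 ± 0.48 (2.02-fold, adjusted p = 0.187). Scaling decided its direction: it became -0.07 with quantile scaling and -0.09 in the authors' deposited values. Before scaling, the signals were 5112 to 9582 in TAG and 9233 to 13159 in Exoseal, which overlap. The other tested probe of FASN, A_72_P223177, also separated the groups, with 2.54, 1.69 and 1.38 in TAG and -0.12, -1.23 and 1.02 in Exoseal, a difference of 1.98 ± 0.62 (adjusted p = 0.0691 with every probe as a feature). That probe passed with quantile scaling (2.02, adjusted p = 0.0449) and without Exoseal replicate 1 (1.97, 0.0200), but not with slide as a block (1.99, 0.104). On both probes Exoseal replicate 2 was the lowest array and Exoseal replicate 3 the highest of its group.

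SCD, the stearoyl-CoA desaturase that turns saturated into monounsaturated fatty acids, had 9 probes, the most of the 8 genes, and its brightest probe differed from the rest. That probe (A_72_P088586) had 5.38, 4.15 and 4.26 in TAG and 3.11, 4.93 and 5.70 in Exoseal. The groups overlapped, Exoseal replicates 2 and 3 lying among the highest arrays and Exoseal replicate 1 lowest, and the difference was 0.02 ± 0.69 (adjusted p = 0.988). The other 7 tested probes were all higher on every TAG array than on any Exoseal array, with differences from 1.63 to 2.68. Over all probes 36.4% had groups that did not overlap, in either direction. With every probe as a feature, 4 of the 8 tested SCD probes rose past the threshold, where 7.06% of all probes were called higher in TAG.

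Of those 4 probes, A_72_P600413 had 4.48, 3.93 and 3.68 in TAG and 0.83, 1.62 and 1.91 in Exoseal, a rise of 2.57 ± 0.47 (5.95-fold, adjusted p = 0.0239). Probe A_72_P647153 had 4.71, 4.01 and 3.87 against 0.54, 2.24 and 2.63, a rise of 2.39 ± 0.60 (adjusted p = 0.0393). Probe A_72_P582991 rose by 1.92 ± 0.50 (adjusted p = 0.0427). The fourth, A_72_P586661, rose by 2.68 ± 0.53 (adjusted p = 0.0254) but was well above background on 1 of 3 Exoseal arrays, with signals of at most 16.5. These 4 probes read 1 transcript in the array annotation and are not replicates of the comparison. As the mean of its probes, SCD as a gene rose by 1.88 (adjusted p = 0.0390 over all probes, 0.0459 over those past the filter). Unscaled, A_72_P600413 gave 247 to 810 in TAG and 121 to 465 in Exoseal, which overlap.

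The SCD probes shared an order of the arrays. Exoseal replicate 1 was the lowest of the 6 arrays on 7 of 8 probes, and TAG replicate 1 was the highest TAG array on 7 of 8. Against Exoseal replicate 1 as the single Exoseal array of slide 1, all 8 probes had a difference above 0, from 1.49 to 3.83, and 7 passed, where 7.06% of all probes were called higher. Without Exoseal replicate 1 the brightest probe had -0.71, the other 7 stayed above 0, and 5 probes passed. With quantile scaling 6 of 8 passed (7.17% of all probes called higher) and with median scaling 1 of 8 (2.17%). When any TAG array, or Exoseal replicate 2 or 3, was left out, no SCD probe passed, and 0 of all 22720 probes did in those limma fits (4573 to 6426 at an unadjusted p under 0.05).

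**Figure D2:**
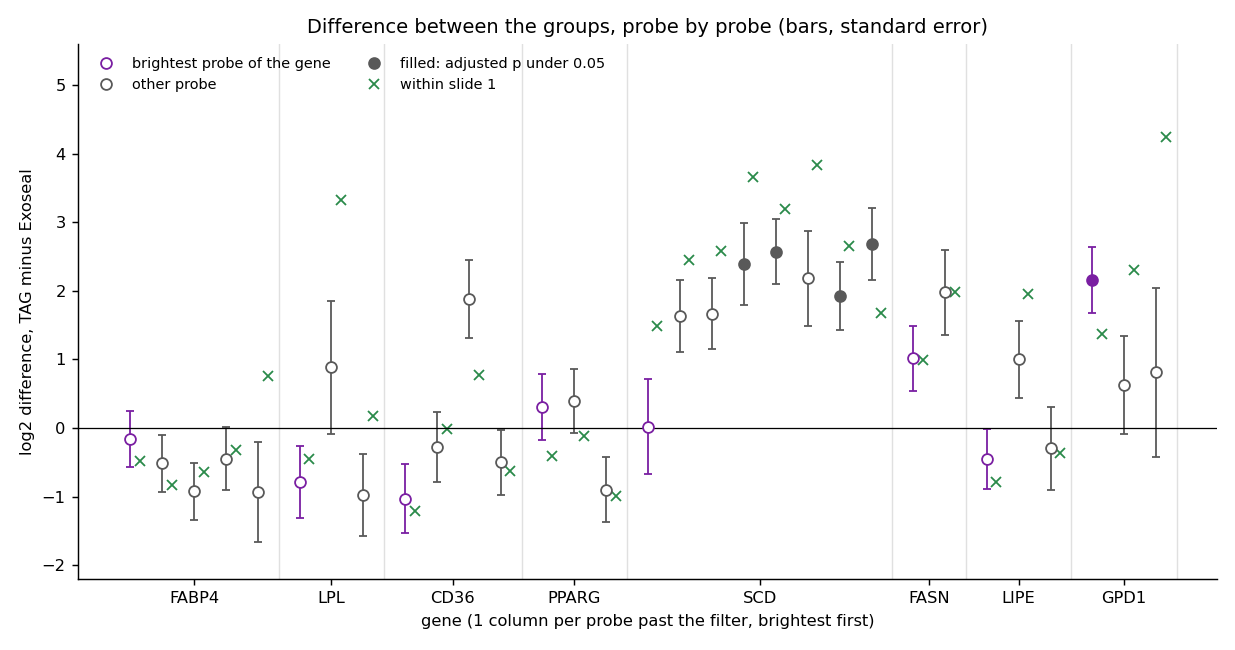
Log2 difference between TAG and Exoseal (vertical axis) for each of the 31 tested probes, grouped by gene (horizontal axis) with the brightest probe first. Bars are standard errors from limma with every probe as a feature, filled points have an adjusted p under 0.05, and crosses give the difference within slide 1. All 8 SCD probes lie at or above 0.02, with 4 filled, and the brightest GPD1 probe at 2.16 is the only other filled point.

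GPD1, the cytosolic glycerol 3-phosphate dehydrogenase, was the gene that passed. Its brightest probe (A_72_P442634) had 1.12, 1.00 and 1.17 in TAG and -0.27, -1.66 and -1.25 in Exoseal, groups that lay well apart. It rose by 2.16 ± 0.48 (limma, adjusted p = 0.0308). The unscaled signals overlapped, at 79.0, 51.4 and 43.4 in TAG and 56.8, 47.6 and 25.6 in Exoseal, while the 75th percentile of the arrays was 19.3 to 36.4 in TAG and 61.0 to 151 in Exoseal. It held with quantile scaling (2.05) and in the authors' values (2.05), was 0.99 with normexp and quantile scaling (adjusted p = 0.0290), and missed the threshold with median scaling (1.70, adjusted p = 0.0546). Within slide 1 it had 1.37 (adjusted p = 0.0663), and with slide as a block the adjusted p was 0.135. It also missed the threshold when any TAG array or Exoseal replicate 2 or 3 was left out (adjusted p from 0.0645 to 0.135), and kept it without Exoseal replicate 1 (2.55).

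The other probes of GPD1 gave a different picture. A_72_P662126 had 0.34, -0.04 and -0.43 in TAG and -2.35, -0.25 and 0.59 in Exoseal, and A_72_P667123 had 0.32, -0.28 and -1.05 against -4.59, 0.18 and 0.96. On both, Exoseal replicate 1 was lowest and not well above background, and Exoseal replicate 3 was highest. TAG replicate 3 was not above background on the latter. Their differences were 0.63 ± 0.71 and 0.81 ± 1.23, and neither passed (adjusted p = 0.592 and 0.699). Within slide 1, against Exoseal replicate 1 alone, they had 2.31 and 4.25 and passed (0.0347 and 0.0294), and without that array both had a difference below 0. As the mean of all its probes GPD1 had 1.60 and passed (adjusted p = 0.0496), and as the mean of those past the filter it had 1.20 and did not (0.242). The former takes in A_72_P352923, above background on Exoseal replicate 1 alone, on which the group means differed by 2.79.

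LIPE, hormone-sensitive lipase, releases the stored fat. Its brightest probe (A_72_P551986) had 1.40, 1.08 and 1.18 in TAG and 2.02, 1.10 and 1.89 in Exoseal, with Exoseal replicate 2 among the TAG values. The difference was -0.45 ± 0.44 (adjusted p = 0.540). The other probe above background on all 6 arrays, A_72_P223552, had 1.51, 1.11 and 1.18 in TAG and -0.68, 0.12 and 1.37 in Exoseal, and its difference was 1.00 ± 0.56 (adjusted p = 0.257). These probes gave opposite signs: Exoseal replicate 1 was the highest of the 6 arrays on the first and the lowest on the second. Without that array they had -0.27 and 0.53. The remaining probe had -0.30 ± 0.60. As the mean of its probes LIPE had 0.09.

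Probes of 1 gene disagreed in sign for 4 of the 8 genes (LPL, CD36, PPARG and LIPE). The other 4 had a single sign, below 0 on 5 probes of FABP4 and above 0 on 8 of SCD, 2 of FASN and 3 of GPD1. Of all 31 tested probes 5 were called, all higher in TAG, or 16.1% against 10.8% of all probes in either direction. The groups did not overlap on 13 of 31, against 36.4% of all probes. Probe sequences, and where on each transcript a probe lies, were not analysed here.

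How far the 8 genes shared an order of the 6 arrays depended on the scaling. Kendall's W by the brightest probe, which is 1 when all genes rank the arrays alike, was 0.0786 over the 8 genes, and 0.0142 over all features tested. Unrelated ranks give a W near 1 divided by the number of genes ranked. A value over 8 genes therefore cannot be set directly against that over all features. Within Exoseal it was 0.141 and within TAG 0.0625. Quantile scaling gave 0.123 and the authors' deposited values 0.141. With median scaling W was 0.300 over the 6 arrays (0.108 over all features) and 0.578 within TAG (0.0484 over all features), where TAG replicate 3 was the lowest TAG array for 7 of 8 genes (87.5%, against 47.9% of all features). In the main scaling replicate 1 was the highest Exoseal array for FABP4, PPARG, LIPE and GPD1, replicate 2 for LPL and CD36, and replicate 3 for SCD and FASN.

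Over the 31 probes the arrays of a group were ordered more unevenly than over all features, though many of these probes read the same transcript. TAG replicate 1 was the highest TAG array on 19 of 31 (61.3%, against 33.9% of all features), and TAG replicate 3 the lowest on 19 of 31 (61.3% against 37.6%). Exoseal replicate 1 was the lowest of all 6 arrays on 12 of 31 (38.7% against 15.5%), of which 7 were SCD probes, 2 GPD1 probes and 1 each of FABP4, LPL and LIPE. Exoseal replicate 3 was the lowest of the 6 on none of the 31, against 10.9% of all features. Over the probes of a single gene W was 0.748 for 8 SCD probes, 0.387 for 5 FABP4 probes and 0.364 for 4 CD36 probes, and 0.0984 over all 31. W runs higher when few probes are ranked.

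**Figure D3:**
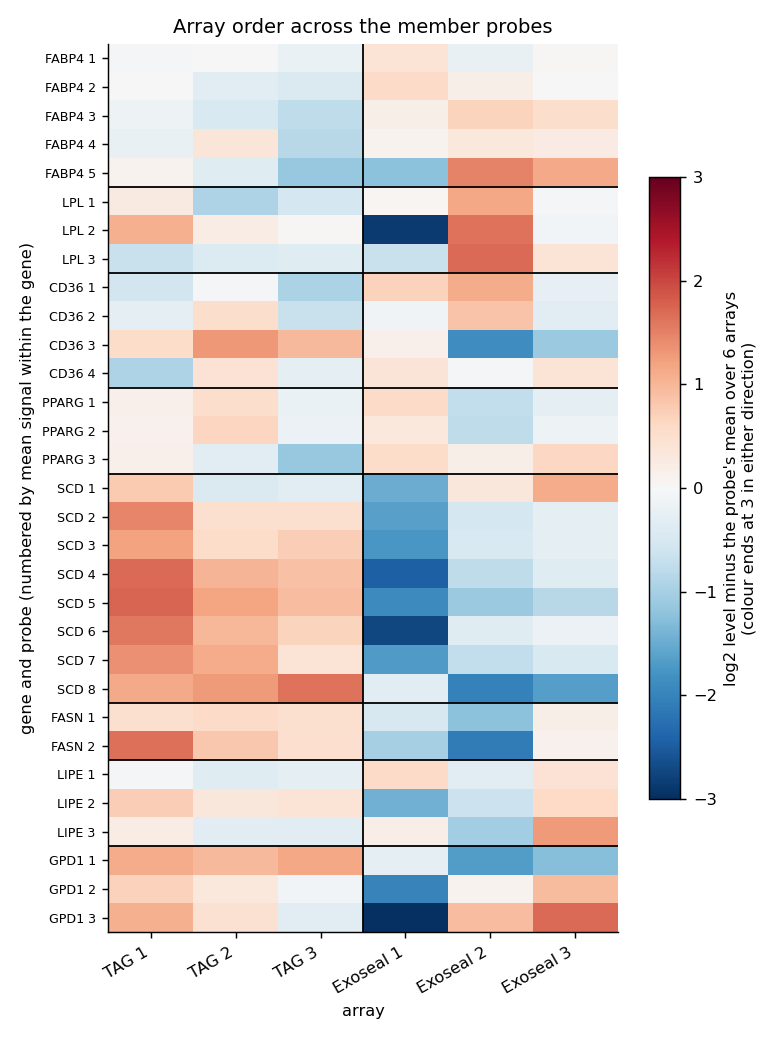
Log2 level of each of the 31 tested probes (rows, by gene, numbered by mean signal) on each array (columns), minus the mean of the probe over the 6 arrays. Red is above and blue below that mean. Exoseal replicate 1 is the darkest blue column in 7 of 8 SCD rows and in rows 2 and 3 of GPD1, and no column keeps 1 colour over all genes.

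Of 20 further genes of adipocyte identity, 16 were on the array and 8 passed the filter. On all 6 arrays 6 were above background: RBP4, the retinol carrier, the adiponectin receptor ADIPOR1, the transcription factors KLF15 and NR1H3, TUSC5 and UCP3, and none of them is made by fat cells alone. The other 10 include the hormones and droplet proteins that define fat cells, and 9 were detected above background on no TAG array by any probe. ADIPOQ, the fat cell hormone adiponectin, was above background on Exoseal replicates 2 and 3 alone, with unscaled signals of 42.4 and 24.9 there, 7.45 on Exoseal replicate 1 and 2.39 to 5.48 on TAG arrays. PLIN1, the coat protein of the fat droplet, was above background on TAG replicate 1 and Exoseal replicate 1 alone. CIDEC, CIDEA and RETN were above background on Exoseal replicate 1 alone, and AQP7, the glycerol channel, on no array. LEP, the hormone leptin, was above background on all 3 Exoseal arrays and no TAG array, at levels close to the TAG floor.

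The adipocyte list counted above background was thus 6 or 7 genes on each TAG array, 13 on Exoseal replicate 1 and 10 on each of Exoseal replicates 2 and 3. More probes of any kind were detected on the Exoseal arrays, and slide 2 has the lower floor. FABP4 was well above background on every array while ADIPOQ and PLIN1 were on 2 arrays each. In bulk samples such as these, fewer cells of a type and less RNA per cell cannot be told apart. The summed level of the 8 tested adipocyte genes, as multiples of the 75th percentile, was 38.5 to 53.5 in TAG and 35.1 to 72.5 in Exoseal. Most of that sum was RBP4, and without it the other 7 genes summed to 10.5 to 12.1 and 9.66 to 12.9. The part of fat content in the differences of the 8 genes was not tested.

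**Figure D4:**
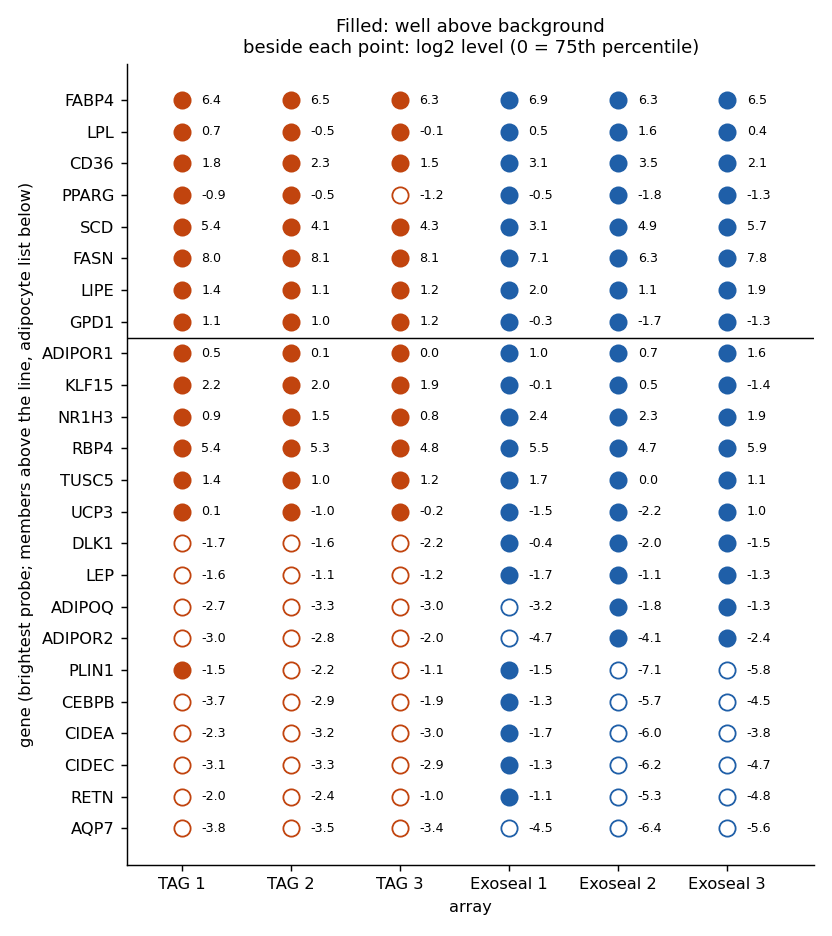
Brightest probe of the 8 genes (above the line) and of 16 adipocyte identity genes (below it) on each array. A filled point is well above background, a hollow point is not, and the number beside it is the log2 level. All 8 genes are filled on all arrays except PPARG on TAG replicate 3, while ADIPOQ is filled on Exoseal replicates 2 and 3 only and AQP7 on none.

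Further genes of fat and lipid metabolism, in 7 lists, gave 62 tested genes of 85 on the array. Of these 3 rose (6.59% of all features and 5.58% of named genes were called higher) and 1 fell (3.67% and 3.04% called lower), with a median difference of 0.11, and -0.13 within slide 1. The fatty acid carriers went in both directions. FABP3, the carrier of heart and skeletal muscle, rose by 2.92 ± 0.53 (7.57-fold, adjusted p = 0.0229), from -2.69, -2.78 and -1.44 in Exoseal to 1.20, 0.56 and 0.08 in TAG, and was above background on 2 of 3 Exoseal arrays. FABP5, the carrier of epidermis, endothelium and macrophages, fell by 1.90 ± 0.47 (3.73-fold lower in TAG, adjusted p = 0.0373), with 3.95, 4.31 and 3.38 in TAG and 6.06, 6.01 and 5.26 in Exoseal. Their groups did not overlap, and FABP4, their relative of fat cells, had -0.16.

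Among the adipocyte identity genes KLF15, a transcription factor of fat and muscle, rose by 2.40 ± 0.54 (5.28-fold, adjusted p = 0.0308) as 1 of 8. It had 2.20, 1.99 and 1.95 in TAG and -0.15, 0.47 and -1.39 in Exoseal. In the list of cholesterol and lipoprotein genes APOA1, the main protein of HDL, rose by 1.81 ± 0.46 (adjusted p = 0.0401) as 1 of 11. With median scaling FABP3 (adjusted p = 0.0524), KLF15 (0.0800) and APOA1 (0.0871) missed the threshold, and with slide as a block KLF15 (0.0516) and APOA1 (0.212) did. The median of the adipocyte list was -0.06 and that of the cholesterol list 0.72. In the list of uptake, binding and transport 1 of 11 rose and 1 fell, with a median of 0.31.

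The other lists had no gene past the threshold. Of 8 genes of fatty acid and triglyceride synthesis 0 passed, with FADS1, a desaturase of polyunsaturated fatty acids, at 2.43 (adjusted p = 0.0645) and DGAT2, which adds the last fatty acid of a triglyceride, at 2.95 (0.0852). FADS1 was above background on 2 arrays of each group and DGAT2 on 3 TAG arrays and 1 Exoseal array, and within slide 1 they had 0.64 and 0.20. Of 6 lipolysis and lipid droplet genes 0 passed, with ABHD5, the activator of adipose triglyceride lipase, at -1.18 (0.0870) and PNPLA3 at 1.21 (0.154). Of 12 fatty acid oxidation genes 0 passed, with ACADL, a mitochondrial dehydrogenase, at -1.61 (0.0616, but 0.17 as the mean of its probes). Of 6 genes of insulin and glucose signalling 0 passed, with IGF1 at -0.98 (0.183) and PCK1 at -0.52 (0.464). Medians of these lists were 0.38, -0.20, 0.28 and -0.19.

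**Figure D5:**
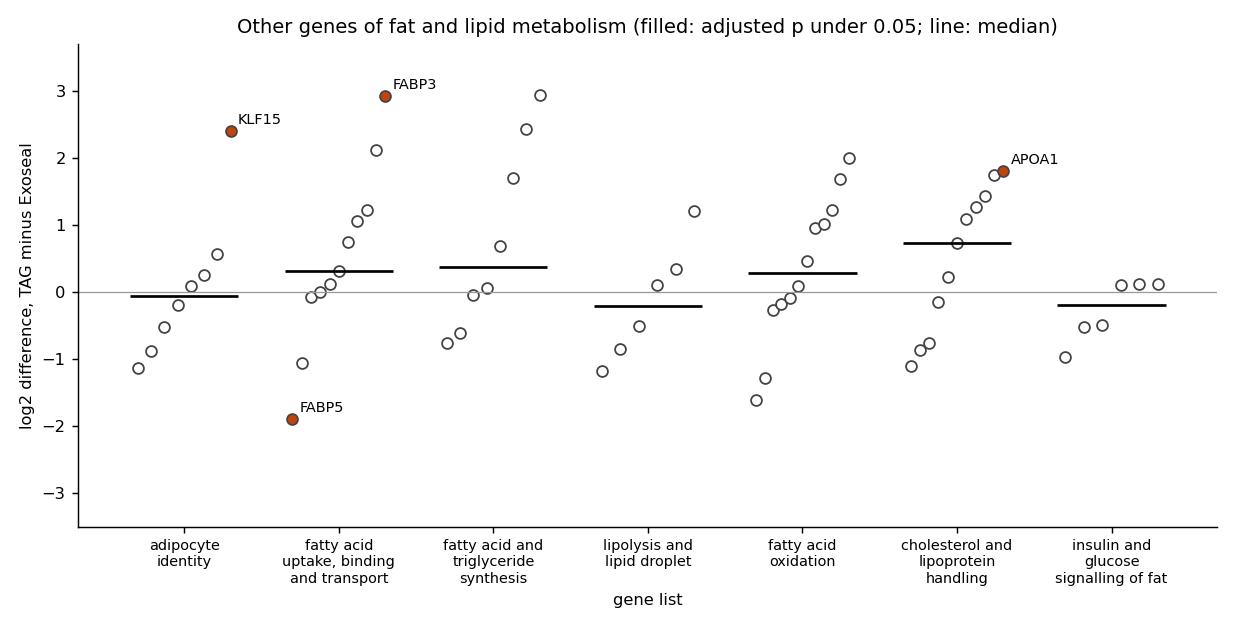
Log2 difference between TAG and Exoseal (vertical axis) of the tested genes in 7 lists of fat and lipid metabolism (horizontal axis), 1 point a gene. Filled points have an adjusted p under 0.05 and the line is the median of the list. FABP3, KLF15 and APOA1 are filled above 0 and FABP5 below it.

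Markers of other cell types, several of which use these genes, also differed between the groups, where 6.59% of all features were called higher and 3.67% lower in TAG. Of 8 tested macrophage markers 3 fell in TAG, LYZ by 3.64, CD86 by 1.92 and AIF1 by 1.80 on the log2 scale. The list had 5 differences below 0 and 3 above (C1QA 0.68, CD14 0.23 and CD163 0.10), with a median of -0.31. Its summed level was 16.2 to 23.9 in TAG and 46.7 to 86.1 in Exoseal. That sum was led on the Exoseal arrays by LYZ (4.12 to 5.57) and AIF1 (4.25 to 4.74), and was not taken without them. Of 2 endothelial markers CDH5 fell by 2.47, with a summed level of 3.95 to 8.64 in TAG and 12.9 to 50.8 in Exoseal. This sum and that of the macrophage list were both highest on Exoseal replicate 2. On that array the brightest probes of LPL and CD36 were also highest, and that of FABP4 was the lowest of the 6. Of 16 skeletal muscle markers ACTA1 rose by 2.48, with summed levels of 74.1 to 95.4 in TAG and 30.0 to 55.7 in Exoseal. Without ACTA1 the other 15 summed to 26.7 to 39.5 and 19.4 to 46.7, which overlap, and the list had a median difference of 0.03. Of 4 smooth muscle markers, those of the artery wall itself, ACTA2 rose by 2.22 and DES by 1.52, with summed levels of 448 to 527 against 247 to 274. Of 3 fibroblast markers IGFBP6 rose by 1.45 (summed levels 266 to 295 against 120 to 161). The median difference was 1.13 for the smooth muscle list and 0.91 for the fibroblast list, but 0.19 and -0.11 with quantile scaling. With median scaling the calls of LYZ, CD86 and AIF1 held and those of CDH5, ACTA2, DES, ACTA1 and IGFBP6 did not. With slide as a block CDH5, ACTA2, DES and IGFBP6 missed the threshold (adjusted p from 0.0528 to 0.130). As the mean of their probes LYZ and ACTA2 passed and the other 6 called markers did not, with CD86 at 0.01 and ACTA1 at 0.30. The part of these cells in the values of the 8 genes was not tested.

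For each of the 8 genes the 3 named genes with the most similar levels over the 6 arrays were looked up, by Pearson's r among 1231 named genes that varied enough (SD of at least 0.5). With 6 points each, these are descriptions. The brightest probe stood for each gene, and other probes of the same gene ordered the arrays differently, as given above for SCD, GPD1 and LIPE. The similar genes are therefore those of 1 probe. FABP4 was most like DLK1 (r = 0.990), MYRIP (0.990) and MYOZ2 (0.987), of which DLK1 was above background on the Exoseal arrays alone. LPL was most like MT1A (0.972), ACSL4 (0.951) and B3GALNT1 (0.940), and CD36 like BCL2A1 (0.987), CSTB (0.978) and RPN2 (0.973). PPARG was most like AKT1 (0.986), PPP1R11 (0.983) and PRNP (0.980), SCD like MGAT2 (0.945), SLC5A5 (0.923) and LOC396866 (0.886), and FASN like PNPLA3 (0.988), FHL1 (0.988) and CPT1B (0.986). LIPE was most like GATA2 (0.983), DDIT3 (0.975) and GUCA2A (0.961), and GPD1 like CLEC4G (0.997), LMCD1 (0.995) and INHA (0.995). None of the 8 genes was looked up against the other 7, and the 24 genes named here are all different.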

How the data were processed

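RNA of 6 pig artery samples was measured on Agilent 1-colour arrays. Total RNA was linearly amplified and Cy3-labelled, per the labels. The deposited intensity of each spot comes from Agilent Feature Extraction (version 11.0.1.1 in the submitters' processing notes); per the file headers its processed signal was background-subtracted and detrended within each array and not scaled between arrays. A deposited table of the series holds the authors' processed values, on a log2 scale by their range and with a shared column median of 3.40 and a scaling that the sources used here do not state. Replicate spots were averaged as log2, leaving out outlier flags (43380 probes), and no spot was saturated. Probes were named through RefSeq accessions matched to a RefSeq table (Sscrofa11.1; no coordinates were used), so that 5435 probes had 1 symbol. TAG minus Exoseal was fitted with limma 3.58.1 in R 4.3.3 (two-sided, no covariates) on 20857 features, with Benjamini-Hochberg adjustment over all of them and a threshold of 0.05. Other probes were tested in a fit with all 22720 probes past the filter. The test was also tested on simulated data. Errors of differences are standard errors. The number of arrays limits the precision. Genes named are the 8, from each list up to 4 past the threshold or else the 2 with the smallest p, and the 3 most similar per member; a gene that the rule would name is not reported here. ADIPOQ, PLIN1, CIDEC, CIDEA, RETN, AQP7 and LEP were named after their values were seen. The genes and lists were chosen with earlier results of these data known. Same-numbered samples of the groups did not pair, with correlations of their deviations of -0.20, 0.07 and -0.08. The labels' description field names another kind of experiment and was not used. Alternatives were other scalings, filters, probe summaries, labels, slides and single arrays left out; normexp used median spot and background signals.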

Additional observations from a re-analysis of the deposited data

How the results depend on the processing

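Over all features 2139 were called in the main setting, 1105 with median scaling, 1152 with normexp and quantile scaling, 0 without the filter on dim features (13159 at an unadjusted p under 0.05 in limma), 0 with a replicate block (5699), and 3529 with Exoseal replicate 1 counted as TAG. Leaving out 1 array gave 0 to 6957 calls, the latter without Exoseal replicate 1 and 0 without any of the other 5 (4081 to 5689 at an unadjusted p under 0.05). Of the calls 64.2% were higher in TAG, and 49.1% with quantile scaling, 46.0% with median scaling, 53.1% with slide as a block and 55.6% in the authors' values. The median difference of all features was 0.03, and -0.43 with median scaling, -0.13 with slide as a block, 0.17 when the percentile came from probes detected everywhere, and 0.72 without the filter.

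Of the 8 genes 1 passed, and 0 did with median scaling, without the filter, with slide as a block, within slide 1 and with the replicate block, 2 (with SCD) as the mean of all probes or with every probe as a feature, and 0 to 1 with an array left out. Of the 62 lipid list genes 4 passed (6.45%, against 10.3% of all features), and 0 did without the filter or with the replicate block. With median scaling 1 passed (1105 of all 20857 features) and as the mean of all probes 7 (1993). With any probe counted 13 passed, a count without a matching background, since a gene with several probes is tested several times. With Exoseal replicate 1 as TAG 8 passed (3529 of all features). Leaving out an array gave 0 to 19, the latter without Exoseal replicate 1 (6957 of all features). The 8 genes gave 8 different orders of the arrays and the 31 probes 27, a count too near its ceiling to speak of stability.

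Signs turned for genes that had not passed. PPARG had -0.015 with quantile scaling, -0.15 with median scaling, -0.020 in the authors' values, -0.066 by either mean of probes and -0.41 by slide. By its brightest probe SCD had -0.14, -0.44 and -0.14 in the same 3 scalings, -0.27 with normexp and -1.09 with Exoseal replicate 1 as TAG. That probe had -0.37 without TAG replicate 1, and -0.71 (without Exoseal replicate 1) to 0.58 over the arrays left out. In each of these settings at least 7 of the 8 tested SCD probes were above 0. For FASN quantile scaling gave -0.067 and the authors' values -0.087. LPL had 0.61 as the mean of all probes, which takes in 2 probes detected on no array, and -0.29 as the mean of those past the filter. CD36 had 0.017 and LIPE 0.086 by either mean. FABP4 had 0.13 with Exoseal replicate 1 as TAG and -0.30 to 0.0087 over the arrays left out, the latter without it. The cause was not tested. The fit by means of probes past the filter, and the alternatives of the fit by probe, were chosen after seeing the data. The replicate block left no call among all features. It was run for the shared replicate numbers alone, since these did not pair the samples.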
